A study of Arabidopsis thaliana with 12 samples.

Results

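Seedlings of Arabidopsis thaliana that carry HRE2 behind the 35S promoter (35S::HRE2, here HRE2ox) were compared between low oxygen and air. The comparison used 4 of the 12 ATH1 arrays of the study, chosen by their titles: 2 of HRE2ox in hypoxia and 2 of HRE2ox in air. All seedlings were 7 days old, had grown on medium with 30 mM sucrose, and spent 4 h in the dark at 23 °C at 1% oxygen (hypoxia) or 21% oxygen (air). The other 8 arrays held seedlings with HRE1 behind the same promoter (35S::HRE1, here HRE1ox) and Col-0 wild type (WT), 2 arrays in each condition. The 35S promoter is active in most tissues, so HRE2 is also transcribed where and when the native gene is not. The labels do not give the number of independent transgenic lines, and the transgene is present in both HRE2ox groups. Dark and sucrose were also common to all groups.

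Group VII ethylene response factors, to which HRE1 and HRE2 belong, are transcription factors of the low-oxygen response in plants. When oxygen falls, respiration slows, and cells draw energy from glycolysis and fermentation, which regenerates NAD+ by way of ethanol and lactate. A conserved set of transcripts rises across tissues at the same time, several of them of little-known function.

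Values are levels on the log2 scale of the deposited intensity plus 1, and differences are hypoxia minus air with the standard error of the limma fit (n = 2 arrays in each group). A call is an adjusted p under 0.05 after Benjamini-Hochberg adjustment over all 13687 probe sets tested. Group means under log2 4 lie near background, and a difference that starts from one may understate the change. The number of arrays limits the precision of each value. The series text calls the 2 arrays of a group biological replicates and says no more of their origin.

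Median intensities of the 12 arrays ran from 32.7 to 35.7. The median absolute difference between the 2 arrays of a group was 0.17 in HRE2ox hypoxia and 0.15 in HRE2ox air, against 0.22 to 0.23 in the other 4 groups. The 3' minus 5' signal of 1 GAPDH control, a sign of RNA integrity and labelling, averaged 2.55 ± 0.20 (SD, n = 2) in HRE2ox hypoxia and 2.80 ± 0.20 in HRE2ox air. The other 4 groups averaged 2.28 to 2.51. A second GAPDH control gave lower values, 0.62 and 0.43 on the HRE2ox hypoxia arrays and 0.52 and 0.39 on the HRE2ox air arrays. The tissue label was checked against LHCB4.1 and RCA, nuclear genes for chloroplast proteins of green tissue, which read 13.66 to 14.49 on the 4 HRE2ox arrays, while the 1 seed storage gene with a probe set did not pass the filter. One WT air array, replicate 2, has a title that says wild type and an ecotype entry that says 35S::HRE2, and it was grouped by its title. The signal of thr, a spiked control RNA, set 4 arrays apart: it was 8.09 to 8.36 on replicate 1 of both WT and both HRE1ox groups, and 3.1 to 4.57 on the other 8 arrays, which include all 4 of HRE2ox. Across probe sets, the replicate 1 minus replicate 2 differences of the WT and HRE1ox groups correlated with each other at 0.665 to 0.751. Counts are also given with a term for these 4 bright thr arrays in the fit (the array term) and with the 4 left out, both added after the data were seen. Neither changes an HRE2ox hypoxia minus air difference, only its error. With the 4 left out, each WT and HRE1ox group holds 1 array, so the spread comes from the 4 HRE2ox arrays alone. For the HRE2ox response this is the same fit as one of the 4 HRE2ox arrays by themselves. Calls lost in that fit therefore cannot be assigned to the bright thr arrays. The platform annotation assigned no probe set to HRE2 or HRE1, nor to ADH1, PDC1, SUS1, SUS4, HB1, LBD41 or PCO1. These genes could therefore not be followed by name. The annotation listed no gene for 6054 of the tested probe sets. Those were tested all the same and are named by identifier, so genes missing by name may be among them.

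Hypoxia changed 953 probe sets in HRE2ox, 6.96% of those tested. Of these 463 (3.38%) were higher and 490 (3.58%) were lower in hypoxia. The rises were the larger changes: 115 probe sets rose and 33 fell by at least 2 on the log2 scale, and 27 rose and 0 fell by at least 4. The median difference was 1.26 among the called rises and -1.02 among the called falls, against -0.03 over all tested probe sets. Of the 463 that rose, 99 had an air mean under 4. The 2 hypoxia arrays did not overlap the 2 air arrays in any of the 953, a separation that 51.6% of all tested probe sets showed. Of the called probe sets, 448 had exactly 1 assigned gene, and the other 505 are known here by identifier. The array term gave 1945 calls (14.2%), 863 higher and 1082 lower, with the 953 among them. A fit of the 4 HRE2ox arrays alone gave 996 calls, of which 775 were among the 953. For this response, leaving out the 4 bright thr arrays is that same fit. Leaving out 1 HRE2ox array at a time gave 584 and 472 calls (hypoxia replicates 1 and 2) and 485 and 541 calls (air replicates 1 and 2).

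**Figure D1:**
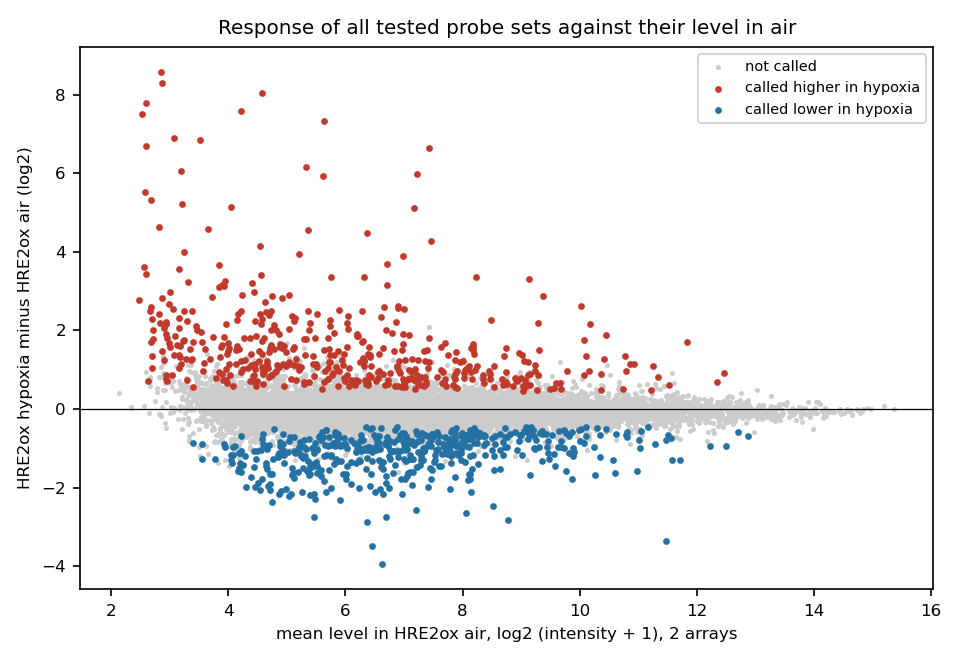
Each point is 1 of the 13687 tested probe sets, with its mean level in HRE2ox air (log2 of intensity + 1) across and its hypoxia minus air difference (log2) up; red marks the 463 called higher, blue the 490 called lower. The rises reach 8.59, while the falls reach -3.96.

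The low-oxygen response genes moved together in HRE2ox. Of 54 genes listed for this response, 27 had a tested probe set, and 26 of the 27 rose in hypoxia while 0 fell, against 3.38% of all tested probe sets called higher. Their median difference was 3.42, 23 of the 27 differed by at least 2 and 12 by at least 4. The list is made of genes known for rising in low oxygen, and it was written with earlier results of these data known, so its direction is no independent evidence. The 1 member not called was AT3G10020, at 9.38 and 10.41 in hypoxia against 9.68 and 9.66 in air (difference 0.22 ± 0.52), where 1 hypoxia array lay above and the other below both air arrays. With the array term, and with the 4 bright thr arrays left out, 26 were called as well. Without 1 HRE2ox array at a time, 22 to 25 members were called.

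**Figure D2:**
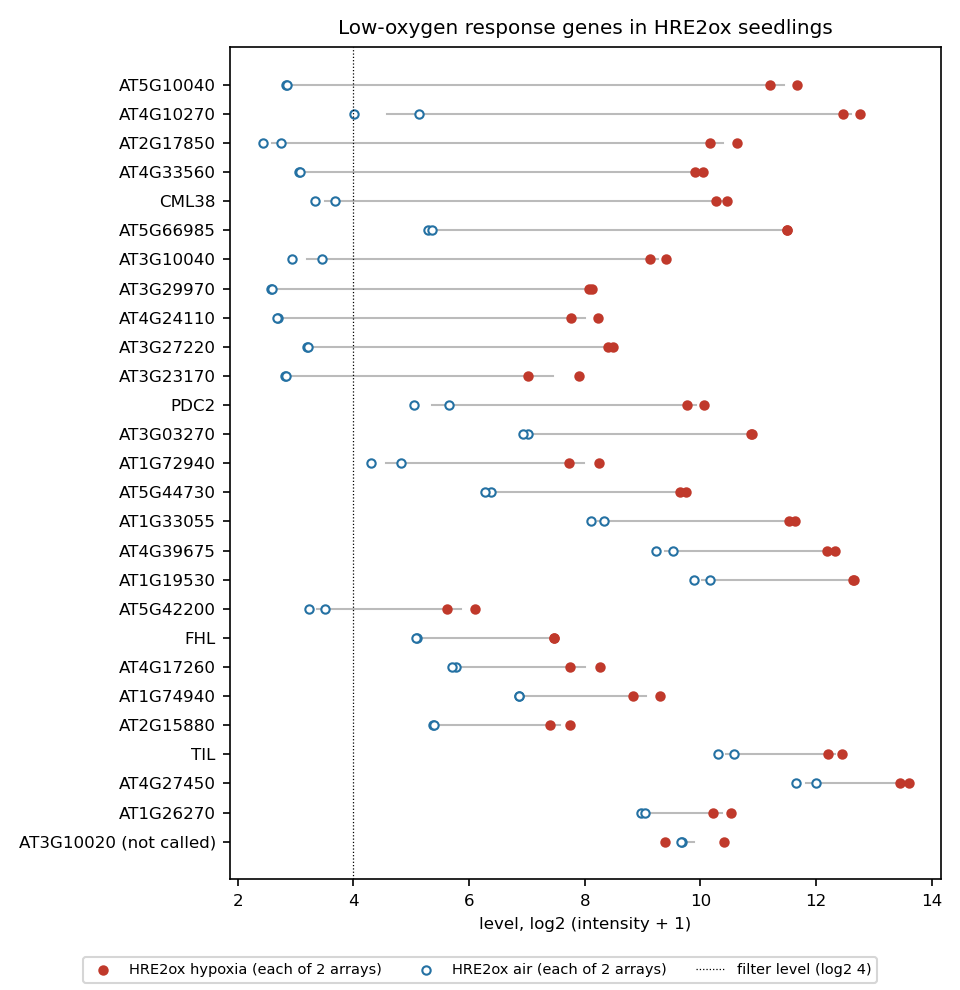
Each row is 1 of the 27 low-oxygen response genes, with its level (log2 of intensity + 1) on each of the 2 HRE2ox hypoxia arrays (filled red) and the 2 HRE2ox air arrays (open blue); grey lines join the group means and the dotted line is the filter level. In 26 rows both red points lie to the right of both blue points, and in AT3G10020 they straddle them.

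AT5G10040, a gene of unknown function, rose most of all probe sets with 1 assigned gene. It stood at 11.68 and 11.20 in hypoxia, against 2.84 and 2.86 in air (difference 8.59 ± 0.19, adjusted p = 1.3e-08), a 386-fold ratio of intensity plus 1. Both air arrays were near background and both hypoxia arrays were far above it. AT2G17850, which encodes a rhodanese-like protein, read 10.16 and 10.63 in hypoxia, against 2.75 and 2.43 in air (7.80 ± 0.35). Its air arrays were also near background.

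A pair of wound-responsive family genes followed. AT4G10270 stood at 12.76 and 12.46 in hypoxia, against 5.14 and 4.01 in air (8.04 ± 0.33). AT4G33560 stood at 10.04 and 9.90 in hypoxia, against 3.06 and 3.08 in air (6.90 ± 0.20). The groups were wide apart in both genes, and the air arrays of AT4G10270 differed from each other by more than those of AT4G33560.

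Among regulators, AT3G10040 (HRA1), a trihelix factor known to restrain the low-oxygen response, was at 9.14 and 9.40 in hypoxia, against 3.46 and 2.94 in air (6.07 ± 0.25). It was the only tested member of the oxygen-sensing list. AT1G74940, of the FLZ zinc finger family, read 8.83 and 9.31 in hypoxia, against 6.86 on both air arrays (2.20 ± 0.42). Leaving out hypoxia replicate 2 (adjusted p = 0.112), air replicate 1 (0.0882) or air replicate 2 (0.0792) ended that call. FHL, which carries phytochrome A into the nucleus, read 7.47 on both hypoxia arrays, against 5.10 and 5.08 in air (2.38 ± 0.18). The RING-type gene AT5G42200 rose by 2.49 ± 0.44, and its call was lost without hypoxia replicate 2 (0.0861) and air replicate 1 (0.0845).

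Of 8 listed fermentation genes 2 were tested, and both rose, against 3.38% of all tested probe sets called higher. PDC2, a pyruvate decarboxylase that feeds ethanol formation, stood at 10.07 and 9.77 in hypoxia, against 5.66 and 5.05 in air (4.57 ± 0.26, adjusted p = 6.4e-06). AT4G17260, the lactate dehydrogenase, stood at 8.26 and 7.74 in hypoxia, against 5.78 and 5.70 in air (2.26 ± 0.16, adjusted p = 3.85e-05). In each gene the lower hypoxia array was well above the higher air array. Upstream, only 10 of 44 listed genes of sucrose breakdown and glycolysis were tested. Of these, 0 were called by limma, where 6.96% of all tested probe sets were called, and 0 with the array term, where 14.2% were called. An unadjusted p under 0.05 was found in 2 of the 10, and in 18.0% of all tested. At these shares the 10 genes do not tell whether the upstream steps changed. The median of the 10 was 0.19. The cytosolic glyceraldehyde phosphate dehydrogenase GAPC2 read 13.66 and 13.53 in hypoxia, against 13.36 and 13.19 in air (0.32 ± 0.13, adjusted p = 0.206). ENOC, an enolase, differed by -0.33 ± 0.18 (adjusted p = 0.423).

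All 5 tested genes of the reactive oxygen and calcium list rose, against 3.38% of all tested probe sets called higher, with a median of 3.44. CML38 and AT3G03270 are also counted in the low-oxygen list. CML38, a calmodulin-like calcium sensor, read 10.47 and 10.27 in hypoxia, against 3.68 and 3.34 in air (6.86 ± 0.19). AT3G03270, a universal stress protein of the HRU1 type, read 10.89 and 10.88 in hypoxia, against 7.03 and 6.94 in air (3.90 ± 0.17). The zinc finger repressor STZ read 6.06 and 6.02 in hypoxia, against 2.62 and 2.58 in air (3.44 ± 0.13). Replicates in these genes differed by a small fraction of the change. AT2G21640, a marker of oxidative stress, rose by 1.68 ± 0.20. AT4G27280, a calcium-binding EF-hand protein, rose by 1.01 ± 0.18, a call that ended when air replicate 1 (adjusted p = 0.0543) or air replicate 2 (0.0622) was left out. CML38 was also the only 1 of 5 calmodulin-like genes called, where 3.38% of all tested probe sets were called higher. The other 4 genes differed by 0.05 to 0.40.

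Further members of the low-oxygen list are grouped here by family. AT3G29970, of the B12D family, read 8.13 and 8.07 in hypoxia, against 2.57 and 2.59 in air (5.52 ± 0.31). The kelch repeat gene AT3G27220 read 8.49 and 8.40 in hypoxia, against 3.21 on both air arrays (5.23 ± 0.24). Air levels of both were near background and their replicates nearly coincided. AT5G66985, of unknown function, read 11.49 and 11.50 in hypoxia, against 5.29 and 5.36 in air (6.17 ± 0.12). The remaining 5 members, for which no role is given here, are AT4G24110, AT3G23170, AT1G33055, AT4G39675 and AT1G19530, and they rose by 2.61 to 5.32.

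TIL and AT4G27450 had a high level in air already. TIL, a temperature-induced lipocalin, read 12.46 and 12.21 in hypoxia, against 10.59 and 10.30 in air (1.89 ± 0.15). AT4G27450, an aluminium-induced protein, read 13.46 and 13.60 in hypoxia, against 12.00 and 11.65 in air (1.70 ± 0.18). The groups did not overlap in either gene. AT1G72940, a TIR-NBS gene, rose by 3.42 ± 0.39 and AT5G44730, a haloacid dehalogenase-like hydrolase, by 3.37 ± 0.20. AT2G15880, a leucine-rich repeat extensin, rose by 2.18 ± 0.39, a call lost without hypoxia replicate 1 (adjusted p = 0.0692), air replicate 1 (0.0703) and air replicate 2 (0.061). AT1G26270, a phosphatidylinositol kinase family gene, rose by 1.37 ± 0.22, a call lost without air replicate 1 (0.0516).

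Outside the list, 2 of the 15 genes with the highest rise had no place in it. AT2G41730 read 8.59 and 8.81 in hypoxia, against 4.59 and 4.50 in air (4.15 ± 0.38), on a probe set whose name marks possible cross-hybridisation. AT4G31020, of the alpha/beta hydrolase family, read 7.36 and 7.15 in hypoxia, against 3.20 and 3.30 in air (4.00 ± 0.31). In both genes the groups lay far apart. Among probe sets without 1 assigned gene, the highest rises were in 267024_s_at, at 11.21 and 11.14 in hypoxia against 2.87 and 2.88 in air (8.30 ± 0.22), and in 252746_at, at 11.85 and 11.79 in hypoxia against 4.22 on both air arrays (7.60 ± 0.24). 260869_at rose by 7.52 ± 0.19 and 253416_at by 7.34 ± 0.17.

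Stress and degradation genes outside the low-oxygen list rose in part. Of 6 tested PUB ubiquitin ligases 2 rose, against 3.38% of all tested probe sets called higher. PUB22 rose by 1.50 ± 0.15 (5.72 and 5.56 in hypoxia, 4.29 and 3.98 in air) and PUB23 by 1.54 ± 0.32. The PUB23 call was lost without each of the HRE2ox arrays, hypoxia replicate 1 (adjusted p = 0.0915) and replicate 2 (0.126) and air replicate 1 (0.154) and replicate 2 (0.0763). The small heat shock gene AT2G29500 read 5.95 and 5.67 in hypoxia, against 4.77 and 4.54 in air (1.16 ± 0.17). It was the only 1 called of 5 tested heat shock genes, where 33 were listed and 3.38% of all tested probe sets were called higher. AT5G51440, a mitochondrial small heat shock gene, read 3.60 and 4.56 in hypoxia, against 2.93 and 2.89 in air, and its difference of 1.17 ± 0.35 did not pass the test (adjusted p = 0.094). It did pass without hypoxia replicate 1 (leave-out adjusted p = 0.0421) and with the array term (0.0389).

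Seed reserve and iron genes each gave 1 call, of 3 and 1 tested genes, against 3.38% of all tested probe sets called higher. ICL, the isocitrate lyase that lets seedlings turn stored lipid into sugar, read 6.85 and 6.58 in hypoxia, against 4.44 and 4.01 in air (2.49 ± 0.36, adjusted p = 0.00262). The other 2 tested reserve genes, AIM1 and SDP1, differed by 0.07 ± 0.12 and -0.16 ± 0.16. AT1G47400, a small peptide gene of iron deficiency, read 5.98 on both hypoxia arrays, against 4.74 and 4.41 in air (1.40 ± 0.17), and it was the only tested gene of the iron list.

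Of 12 tested expansins and expansin-like genes, proteins that loosen walls, 5 fell and 1 rose, against 3.58% of all tested probe sets called lower and 3.38% higher, with a median of -0.55. EXPA18 and EXPA7, which act in root hairs, fell by 1.53 ± 0.38 (adjusted p = 0.0426) and 1.28 ± 0.33 (0.0477). EXPA18 read 3.14 and 3.12 in hypoxia, against 5.11 and 4.22 in air, and EXPA7 2.26 on both hypoxia arrays, against 4.02 and 3.07 in air. Both hypoxia levels were near background and the air replicates were far apart.

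EXLA2 read 4.96 and 4.92 in hypoxia, against 6.32 and 6.16 in air (-1.30 ± 0.25). EXLA1 and EXLB1, chosen after their values were seen, differed by -1.20 ± 0.13 and -0.80 ± 0.17. EXPA8 was the member that rose, with 9.98 and 10.10 in hypoxia against 9.21 and 9.09 in air (0.89 ± 0.15). Calls in this family were sensitive to single arrays: without hypoxia replicate 1, hypoxia replicate 2 or air replicate 1 only 1 expansin was called lower, and without air replicate 2 there were 4. Under the array term 5 fell and 2 rose, where 7.91% of all tested probe sets were called lower and 6.31% higher. In a fit of the 4 HRE2ox arrays alone 3 fell and 1 rose. EXPA18 had adjusted p = 0.157, 0.201 and 0.309 without hypoxia replicate 1, hypoxia replicate 2 and air replicate 1, EXPA7 had 0.175, 0.214 and 0.32, and EXPA7 had 0.0595 without WT air replicate 2 and 0.079 with the 4 bright thr arrays left out. EXLA2 lost its call without any 1 HRE2ox array, with adjusted p of 0.061 to 0.106. EXPA8 lost its call without hypoxia replicate 2 (0.0603) and air replicate 2 (0.0536).

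Among 5 tested xyloglucan-modifying XTH genes, XTH16 fell and XTH18 rose, against 3.58% of all tested probe sets called lower and 3.38% higher. XTH16 read 5.14 and 5.70 in hypoxia, against 6.86 and 6.82 in air (-1.42 ± 0.19). XTH18 read 8.70 and 8.47 in hypoxia, against 7.46 and 7.26 in air (1.23 ± 0.20), a call lost without hypoxia replicate 1 (adjusted p = 0.0534) and air replicate 2 (0.058). GH9C1, a cellulase-type endoglucanase known from root hairs, read 2.88 and 2.75 in hypoxia, against 5.24 and 4.57 in air (-2.09 ± 0.26). A pair of the 15 genes with the deepest falls belongs to pectin families. AT5G04960, of the pectin methylesterase and inhibitor family, read 4.03 and 3.82 in hypoxia, against 6.72 and 6.65 in air (-2.76 ± 0.24), and the inhibitor family gene AT5G62340 read 5.89 and 5.60 in hypoxia, against 7.77 and 7.81 in air (-2.04 ± 0.24).

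Class III peroxidases, secreted enzymes that cross-link or loosen wall polymers with hydrogen peroxide, were listed after their values were seen. Of 33 tested, 13 fell and 2 rose, against 3.58% of all tested probe sets called lower and 3.38% higher, and the median was -0.34. AT1G30870 read 5.47 and 5.36 in hypoxia, against 7.40 and 7.41 in air (-1.99 ± 0.12, adjusted p = 8.42e-06). AT1G68850 read 3.67 and 3.43 in hypoxia, against 5.89 and 5.46 in air (-2.12 ± 0.32). AT4G30170 read 8.32 and 8.07 in hypoxia, against 9.65 and 9.88 in air (-1.57 ± 0.16). In these genes the groups were apart by several times the spread of replicates. AT5G39580 was among the 2 that rose, with 7.13 and 6.79 in hypoxia against 4.62 and 4.46 in air (2.42 ± 0.21), and Prx37 was the other, at 1.82 ± 0.17. The array term called 7.91% of all tested probe sets lower and 6.31% higher. Without 1 HRE2ox array at a time 9 to 11 peroxidases fell, and with the array term 14 fell and 3 rose.

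**Figure D3:**
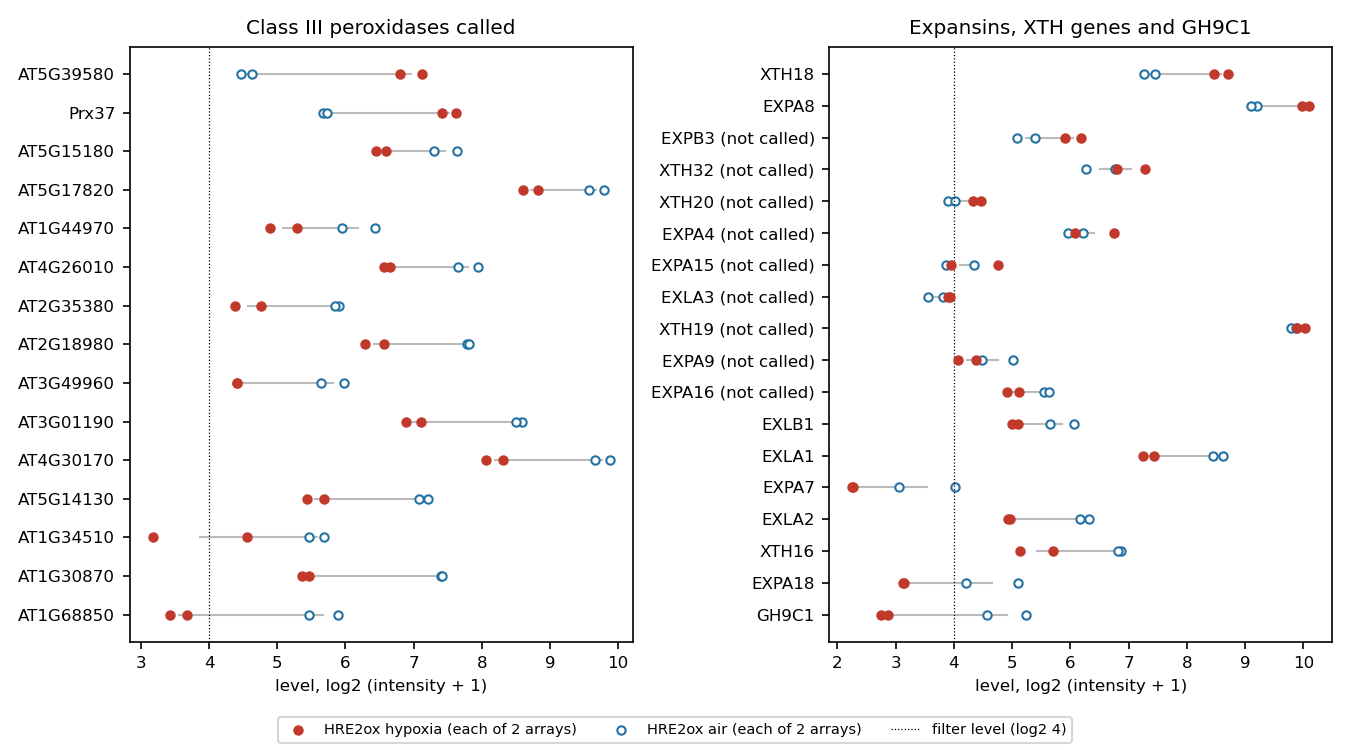
Each row is 1 gene with its level (log2 of intensity + 1) on each of the 2 HRE2ox hypoxia arrays (filled red) and 2 HRE2ox air arrays (open blue), for the 15 called class III peroxidases (left) and for the tested expansins, XTH genes and GH9C1 (right); the dotted line is the filter level. In 13 of the 15 peroxidases both red points lie to the left of both blue points, and AT5G39580 and Prx37 lie the other way.

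Root hair genes overlap these families. Of 5 tested genes of the root hair list, AT1G30870, AT4G26010, EXPA18 and EXPA7 fell, against 3.58% of all tested probe sets called lower. All 4 are peroxidases or expansins and count in those lists too. AT4G26010 read 6.65 and 6.57 in hypoxia, against 7.94 and 7.65 in air (-1.19 ± 0.15). GH9C2 differed by 0.41 ± 0.16 (adjusted p = 0.195, and 0.0444 with the array term). Without hypoxia replicate 1, hypoxia replicate 2 or air replicate 1 the list had 2 calls, and without air replicate 2 it had 4. It also had 2 with no filter or with log2 (intensity + 16), and 3 in a fit of the 4 HRE2ox arrays alone. Whole seedlings were measured, so fewer cells of a type and less RNA per cell cannot be told apart. The nuclear genes LHCB4.1 and RCA of green tissue differed by -0.03 ± 0.15 and 0.18 ± 0.36 on the same arrays. BGLU family beta-glucosidases, also listed after their values were seen, had 4 falls and 1 rise among 9 tested, against 3.58% of all tested probe sets called lower and 3.38% higher. BGLU16 read 7.47 and 7.55 in hypoxia, against 8.66 and 8.71 in air (-1.18 ± 0.11), while BGLU40 rose by 1.38 ± 0.18. Without 1 HRE2ox array at a time 1 or 2 of the family fell.

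The deepest falls lay in genes of no list. AT3G01260, a galactose mutarotase-like gene, read 2.71 and 2.64 in hypoxia, against 6.68 and 6.59 in air (-3.96 ± 0.18, adjusted p = 1.69e-06). AT1G64590, of the short-chain dehydrogenase family, read 2.97 and 2.98 in hypoxia, against 6.45 and 6.46 in air (-3.48 ± 0.27). Both genes ended near background on both hypoxia arrays, as did 91 of the 490 probe sets called lower, so these sizes may understate the fall.

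The cupin gene AT4G10280 read 3.49 and 3.12 in hypoxia, against 5.24 and 5.68 in air (-2.16 ± 0.29). AT1G68710, a P-type ATPase of the lipid flippase kind, read 2.91 and 2.90 in hypoxia, against 5.23 and 4.89 in air (-2.16 ± 0.29). AT1G19900, related to glyoxal oxidases, read 2.66 and 2.65 in hypoxia, against 4.58 and 4.86 in air (-2.06 ± 0.31). These 3 genes were also near background in hypoxia, with no overlap. The aspartyl protease AT2G03200 and the alpha/beta hydrolase AT4G36610 each fell by 2.02, with SEs of 0.19 and 0.20. AT2G34610 fell by 2.00 ± 0.31. OCT1, an organic cation transporter, fell by 1.99 ± 0.42, a call lost without hypoxia replicate 1 (adjusted p = 0.0968), hypoxia replicate 2 (0.125) and air replicate 1 (0.176). AT4G17280, a DOMON and cytochrome b561 gene, read 5.30 and 3.67 in hypoxia, against 6.79 and 6.49 in air (-2.15 ± 0.50). Its call was lost without hypoxia replicate 2 (-1.34, adjusted p = 0.182), air replicate 1 (0.206) and air replicate 2 (0.115), and with the 4 bright thr arrays left out (0.0767). Of probe sets without 1 assigned gene, 254820_s_at had the deepest fall, with 8.27 and 7.96 in hypoxia against 11.60 and 11.33 in air (-3.35 ± 0.17).

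**Figure D4:**
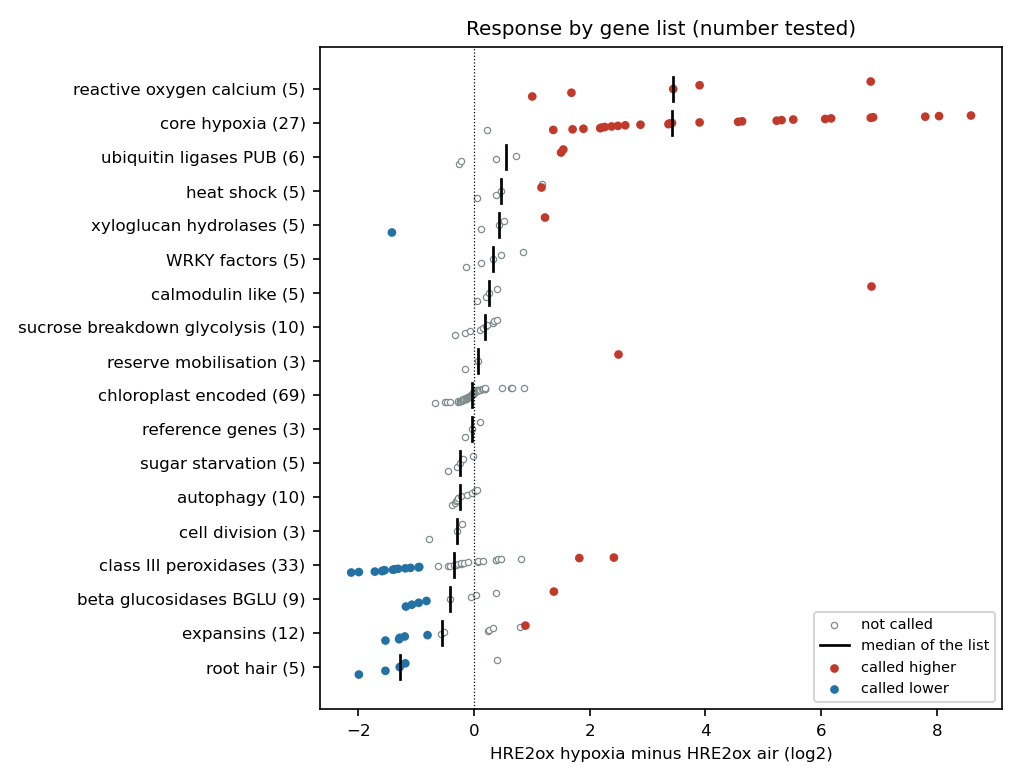
Each point is 1 tested gene, placed by its hypoxia minus air difference in HRE2ox (log2) in the row of its list, with filled points for calls, open points for genes not called and a black bar for the median; lists with at least 3 tested genes are shown, and the number tested is in brackets. The low-oxygen list and the reactive oxygen and calcium list lie to the right, at medians of 3.42 and 3.44, and root hair genes and expansins to the left, at -1.28 and -0.55.

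In 12 lists with 45 tested members 0 were called by limma, where 6.96% of all tested probe sets were called. An unadjusted p under 0.05 was found in 8 of the 45 and in 18.0% of all tested. The array term gave 2 calls among the 45, where it called 14.2% of all tested probe sets. The 2 are WRKY6 and IAA29, named after their values were seen. These lists are sucrose breakdown and glycolysis, ethylene, cell division, the clock, sugar starvation, autophagy, abscisic acid and cold, pathogen defence, WRKY factors, auxin, green tissue and reference genes. Coverage was uneven. The clock, pathogen defence, and abscisic acid and cold lists had 1 tested gene each, of 16, 16 and 19 listed. Ethylene had 2 of 20 and cell division 3 of 24, while autophagy had 10 of 10. For thinly covered lists 0 calls does not tell whether the set responded. Sugar starvation and autophagy genes, which rise when cells run short of carbon, had medians of -0.25 each over 5 and 10 tested genes. MCCB, a leucine breakdown enzyme of the sugar starvation list, read 10.62 and 10.77 in hypoxia, against 11.36 and 10.93 in air (-0.45 ± 0.16, adjusted p = 0.147). WRKY6 differed by 0.85 ± 0.23 (adjusted p = 0.0583, and 0.00398 with the array term), and IAA29 by -0.75 ± 0.19 in the fit with that term (0.0304). AUR2, an Aurora kinase of dividing cells, read 6.01 and 5.43 in hypoxia, against 6.57 and 6.43 in air (-0.78 ± 0.28, adjusted p = 0.164). The 3 reference genes had a median of -0.04. Chloroplast-encoded transcripts, listed after their values were seen, had a median of -0.04 over 69 tested, with 0 called.

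Whether the HRE2 transgene changed this response was tested as the difference between the HRE2ox and the WT responses. Limma called 4 probe sets of 13687 (0.0292%), none with 1 assigned gene, and 354 had an unadjusted p under 0.05. The array term gave 17 calls (0.124%), with the 4 among them, 10 with a larger and 7 with a smaller value in HRE2ox, and 9 of the 17 had 1 assigned gene. Leaving out the 4 bright thr arrays, 245173_at alone was called. In 245173_at the HRE2ox response was smaller than that of WT by 6.16 ± 0.28 (adjusted p = 4.05e-05). Its level was 14.40 and 14.52 in HRE2ox hypoxia and 14.51 and 14.40 in HRE2ox air, against 9.60 and 9.35 in WT hypoxia and 3.39 and 3.23 in WT air. It was thus high on all 4 HRE2ox arrays and hypoxia-dependent in WT. This probe set has no single assigned gene, and whether it reads the HRE2 transgene itself was not tested. Its call is therefore not shown to be a change in the response of another gene. The WT air array whose labels disagree gave the value of 3.23, close to the other WT air array and far below every HRE2ox array. The call held without any 1 of the 4 HRE2ox arrays, with adjusted p up to 0.00123.

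For the other 3 probe sets the HRE2ox response was the larger one, and their difference from WT lay in air. 264953_at read 14.06 on both HRE2ox hypoxia arrays and 7.41 and 7.43 in HRE2ox air, against 14.16 and 14.28 in WT hypoxia and 9.75 and 9.40 in WT air (difference of responses 1.99 ± 0.21, adjusted p = 0.0208). 263096_at read 13.18 and 13.23 in HRE2ox hypoxia and 7.01 and 7.44 in HRE2ox air, against 13.11 and 13.10 in WT hypoxia and 10.07 and 9.50 in WT air (2.66 ± 0.30, adjusted p = 0.0253). 260869_at read 10.02 and 10.09 in HRE2ox hypoxia and 2.63 and 2.44 in HRE2ox air, against 10.06 and 10.52 in WT hypoxia and 5.72 and 5.37 in WT air (2.77 ± 0.27, adjusted p = 0.0143). HRE2ox hypoxia minus WT hypoxia was -0.24 to 0.10 in these probe sets, with adjusted p of 0.818 to 0.963. HRE2ox air minus WT air was -3.01 to -2.16, with adjusted p of 0.000218 to 0.000789, and these air differences were called without any 1 of the 4 air arrays (adjusted p up to 0.0145). With the 4 bright thr arrays left out, which leaves WT air replicate 2 as the only WT air array, they were -2.84 to -1.98, with adjusted p = 0.0222 for 260869_at, 0.0417 for 264953_at and 0.104 for 263096_at. The calls on the difference of responses were less firm: the 3 were lost without any 1 of the HRE2ox arrays, with adjusted p of 0.0672 to 0.218, and without WT air replicate 1 (0.0606 in each). Those of 264953_at and 263096_at were also lost without either WT hypoxia array (0.108 to 0.175). With the 4 bright thr arrays left out the 3 had adjusted p of 0.581 to 0.892, and with the array term 0.00554 to 0.0113. The 3 were kept without WT air replicate 2, the array whose labels disagree.

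The low-oxygen list was also set side by side in the 3 genotypes. In WT 26 of the 27 genes rose (3.31% of all tested probe sets were called higher there) with a median of 3.77, and in HRE1ox 26 (5.31%) with a median of 4.33, beside 26 and 3.42 in HRE2ox. The genotypes share no arrays in these 3 responses, though the spread of each probe set was pooled over all 12. No member of the list was called in the difference between the HRE2ox and WT responses, where 0.0292% of all tested probe sets were called. An unadjusted p under 0.05 was found in 4 of the 27, against 354 of all 13687 tested. The 4 probe sets called in that difference had no single assigned gene, so whether any belongs to the list is not known. In the difference from HRE1ox 0 of 27 were called, where 0.292% of all tested probe sets were called. Here 7 of the 27 had an unadjusted p under 0.05, against 929 of all 13687 tested. At these shares of calls, 0 calls among the 27 does not tell whether the responses of the list differed. The HRE2ox response was below that of WT in 15 of the 27, with a median difference of -0.03, and below that of HRE1ox in 23, with a median of -0.42. Over all tested probe sets it was below in 54.2% in each case, with medians of -0.02 and -0.03.

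With the array term 1 member was called against WT and 3 against HRE1ox, where 0.124% and 1.18% of all tested probe sets were called. These members are named here after their values were seen. Against WT the response of AT5G66985 was larger in HRE2ox by 0.99 ± 0.14 (adjusted p = 0.0414). Against HRE1ox the responses of AT1G72940, AT3G27220 and AT1G33055 were smaller in HRE2ox, by -2.18 ± 0.35, -1.28 ± 0.23 and -0.97 ± 0.18 (adjusted p = 0.0203, 0.0388 and 0.0398). Without that term the 4 had adjusted p of 0.193 to 0.309.

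In air, 3 of the 27 were lower in HRE2ox than in WT, where 0.694% of all tested probe sets were called lower. AT5G66985 read 5.29 and 5.36 in HRE2ox air, against 6.56 and 6.68 in WT air (-1.30 ± 0.12, adjusted p = 0.00163). AT4G33560 read 3.06 and 3.08 in HRE2ox air, against 4.86 and 4.84 in WT air (-1.78 ± 0.20, adjusted p = 0.00611). AT4G10270 read 5.14 and 4.01 in HRE2ox air, against 6.68 and 6.20 in WT air (-1.86 ± 0.33, adjusted p = 0.0388). Their responses in HRE2ox exceeded those in WT by 0.99 ± 0.17, 1.31 ± 0.28 and 1.74 ± 0.46, none of them called without the array term (adjusted p = 0.23, 0.62 and 1). The air call of AT5G66985 held without any 1 of the 4 air arrays. That of AT4G33560 ended on leaving out replicate 1 or 2 of HRE2ox air (0.0699 and 0.0722) or replicate 1 of WT air (0.0617). That of AT4G10270 ended on leaving out replicate 2 of HRE2ox air (0.155) or replicate 1 or 2 of WT air (0.247 and 0.0869). With the array term 4 members were lower in HRE2ox air, where 3.02% of all tested probe sets were called lower, the 3 and AT3G29970 (-1.32 ± 0.32, adjusted p = 0.0443). With the 4 bright thr arrays left out 0 were called by limma, and the 3 had adjusted p = 0.142, 0.0679 and 0.289. In hypoxia 0 of the 27 were called between HRE2ox and WT by limma, where 0.0731% of all probe sets were called. At that share 0 calls does not tell whether the hypoxia levels of the list differed. An unadjusted p under 0.05 was found in 5 of the 27, and its share over all tested probe sets was not counted.

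**Figure D5:**
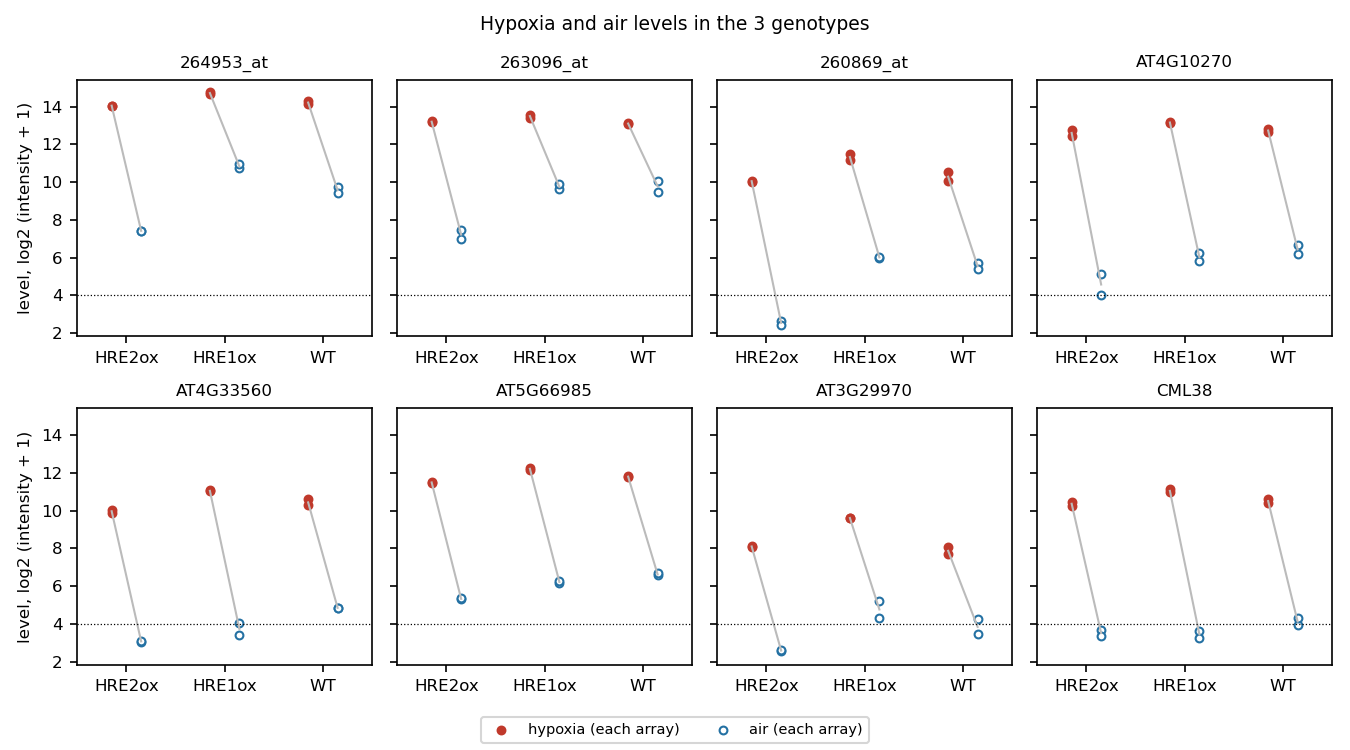
Each panel is 1 probe set or gene, with its level (log2 of intensity + 1) on each hypoxia array (filled red, left of each pair) and each air array (open blue) in HRE2ox, HRE1ox and WT; lines join group means. In the 3 probe sets named by identifier the open HRE2ox points lie lowest while the red points of HRE2ox and WT lie close together, and CML38 is shown as a gene whose air levels are near the filter level in all 3 genotypes.

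The next 4 genes by size of the statistic were not called, and are given as values. They were called under the array term, with adjusted p of 0.0201 to 0.0414. AT2G43620, a chitinase family gene, read 7.01 and 7.14 in HRE2ox hypoxia and 4.69 and 5.38 in HRE2ox air, against 7.83 and 7.88 in WT hypoxia and 7.95 and 7.73 in WT air (difference of responses 2.02 ± 0.29, adjusted p = 0.103). Its lowest values were the 2 HRE2ox air arrays. It was called without HRE2ox air replicate 2 (adjusted p = 0.0286). AT5G09570 had a difference of 1.49 ± 0.23 (adjusted p = 0.151) and likewise its lowest values in HRE2ox air, at 3.68 and 3.69. AT1G10585 and AT2G07777 differed by -1.16 ± 0.17 and -1.66 ± 0.25, with both HRE2ox means near background in each condition (adjusted p = 0.103 and 0.127).

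Of the 463 probe sets that rose in HRE2ox, 458 differed in the same direction in WT and 439 in HRE1ox, and 300 were called higher in all 3 genotypes, where 3.31% of all tested were called higher in WT and 5.31% in HRE1ox. Of the 490 that fell, 485 and 484 had the same direction, and 293 were called lower in all 3, where 3.27% of all tested were called lower in WT and 7.08% in HRE1ox. How often all tested probe sets had the same direction in 2 genotypes was not counted, so the same-direction numbers have no share to set them against. A further 130 that rose and 178 that fell in HRE2ox were not called in WT. The test of the difference between the 2 responses called 0 of the 130 and 0 of the 178, where 0.0292% of all tested probe sets were called. At that share 0 calls does not tell whether their responses differed. An unadjusted p under 0.05 was found in 40 and 39 of them, against 354 of all 13687 tested. These probe sets were chosen by their calls on the same arrays, which itself favours a low p, so the 40 and 39 are no independent evidence. Under the array term the test called 3 of the 130 and 1 of the 178, where 0.124% of all tested probe sets were called.

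Against HRE1ox, 40 probe sets were called (0.292%), 20 with a larger and 20 with a smaller value in HRE2ox, and 929 had an unadjusted p under 0.05. The array term gave 162 calls (1.18%), with the 40 among them, 93 with a larger and 69 with a smaller value. With the 4 bright thr arrays left out, 245173_at alone was called. Of the 40, 17 had 1 assigned gene and 12 had HRE2ox means under 4 in both conditions. 260451_at, chosen after its values were seen, read 10.58 and 10.20 in HRE2ox hypoxia and 6.81 and 6.61 in HRE2ox air, against 14.09 and 14.41 in HRE1ox hypoxia and 14.16 and 14.22 in HRE1ox air (difference of responses 3.62 ± 0.28, adjusted p = 0.00114). It was thus high on all HRE1ox arrays and hypoxia-dependent in HRE2ox. This probe set has no single assigned gene either, and whether it reads the HRE1 transgene itself was not tested. AT2G04050, a MATE efflux transporter, read 7.22 and 7.07 in HRE2ox hypoxia and 4.73 and 3.75 in HRE2ox air, against 6.45 and 6.18 in HRE1ox hypoxia and 6.07 and 6.59 in HRE1ox air (2.92 ± 0.45, adjusted p = 0.0373). AT2G22880, a VQ motif gene, read 5.69 and 5.54 in HRE2ox hypoxia and 3.06 and 3.07 in HRE2ox air, against 7.50 and 7.56 in HRE1ox hypoxia and 3.09 and 3.12 in HRE1ox air (-1.87 ± 0.21, adjusted p = 0.015). The number called was 5 to 9 without 1 array of these groups and 19 without WT air replicate 2, which enters only the pooled spread. Without 1 HRE2ox array at a time AT2G22880 had adjusted p of 0.0532 to 0.109, and AT2G04050 was called only without air replicate 1 (0.0322). With the 4 bright thr arrays left out 260451_at, AT2G04050 and AT2G22880 had adjusted p = 0.135, 0.302 and 0.242.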

How the data were processed

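Whole-seedling RNA was measured on 12 ATH1 arrays, 1 colour each. The deposited values are intensities on a linear scale, background-corrected and normalized across arrays with GCRMA per the submitters' processing notes, which give no version, and raw arrays were not used here. Intensities were taken as log2 (intensity + 1). Of 22810 probe sets, 64 controls were left out, and the 13687 at an intensity of 15 or more on at least 2 of the 12 arrays were tested, which left out 9059.

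A platform annotation table, matched to RefSeq through Entrez identifiers, assigned a single gene to 7341 of the tested probe sets, several to 292 and none to 6054. A listed gene with more than 1 probe set was represented by the brightest over the 12 arrays.

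Arrays were grouped by title into 6 groups of 2. limma 3.58.1 in R 4.3.3 (lmFit, eBayes without trend) was fitted over all 12 arrays, with 6 residual and 3.25 prior degrees of freedom. Tests were two-sided, with Benjamini-Hochberg adjustment over all tested probe sets of a comparison. Comparisons were hypoxia minus air in HRE2ox and the difference of that response from those of WT and HRE1ox. Responses of WT and HRE1ox, and HRE2ox minus WT in air and in hypoxia, give context. A term for 4 arrays with a bright thr control (over log2 6), and a fit without them, were added after the data were seen.

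The comparison and the gene lists were chosen with earlier results of these data known. Of 32 lists, 24 had a tested member. The lists for seed storage, flavonoids, nitrate, aquaporins, cytosolic ribosomal proteins, chloroplast- and mitochondrion-encoded genes and root tissue had none, and peroxidases, BGLU genes and chloroplast-encoded genes were listed after the values were seen. Text names follow a rule: the 15 highest and 15 lowest called genes, members of each list (the 3 highest and 3 lowest where over 6 were tested), called differences between responses (6 at each end with 1 gene where over 12) and 4 probe sets without 1 gene at each end. Others are marked as chosen after their values were seen. The fit was also run on simulated data, with independent arrays and a common mean for each probe set. Those data lacked the replicate differences that the WT and HRE1ox groups share, so the run does not test the errors given here. Sequences are not shown.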

Additional observations from a re-analysis of the deposited data

Results flagged for a closer look

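The results below were picked out because the test of the difference between 2 hypoxia responses itself passed its threshold. Each value is the HRE2ox response minus the response of the other genotype on the log2 scale, from limma.

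Against WT the values were -6.16 for 245173_at, 1.99 for 264953_at, 2.66 for 263096_at and 2.77 for 260869_at. Against HRE1ox the same 4 probe sets had -6.33, 2.75, 2.24 and 2.20.

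Further differences from HRE1ox with a smaller value in HRE2ox were -3.46 for 249082_at, -2.66 for AT4G30380, -2.09 for AT3G47540, -1.87 for AT2G22880, -1.85 for AT2G07777, -1.63 for AT4G30680 and -1.59 for AT5G48350. In 249082_at, HRE2ox read 2.37 and 2.38 in hypoxia and 4.37 and 5.14 in air, against 3.61 and 3.26 in HRE1ox hypoxia and 2.33 and 2.38 in HRE1ox air. For AT3G47540, AT2G07777, AT4G30680 and AT5G48350 the HRE2ox means lay under log2 4 in both conditions.

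Those with a larger value in HRE2ox were 1.07 for 264415_at, 1.31 for AT1G56060, 1.34 for AT5G45950, 1.41 for AT5G22580, 1.68 for AT1G47400, 1.96 for AT5G57760, 2.92 for AT2G04050 and 3.62 for 260451_at. In AT5G57760 the HRE2ox means also lay under log2 4, with 2.88 and 3.13 in HRE2ox hypoxia and 3.57 and 3.44 in HRE2ox air, against 2.92 and 3.08 in HRE1ox hypoxia and 5.69 and 5.22 in HRE1ox air. AT1G47400, the iron deficiency peptide gene, read 5.98 on both HRE2ox hypoxia arrays and 4.74 and 4.41 in HRE2ox air, against 4.66 and 4.63 in HRE1ox hypoxia and 4.80 and 5.02 in HRE1ox air. AT5G45950, a GDSL-type lipase gene, read 7.77 and 7.54 in HRE2ox hypoxia and 8.20 and 8.11 in HRE2ox air, against 6.93 and 6.57 in HRE1ox hypoxia and 8.57 and 8.63 in HRE1ox air. Without 1 HRE2ox array at a time 245173_at, 260451_at and 249082_at kept their calls against HRE1ox, AT2G04050 kept 1 of 4, and the other 11 genes named with values against HRE1ox kept none. With the 4 arrays of bright thr control left out, 245173_at was the only probe set called against WT or HRE1ox. With a term for those 4 arrays all calls given here were kept.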

How the results depend on the processing

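The count of 953 probe sets in the HRE2ox response was 754 to 1095 under a replicate block, a fit of the 4 arrays alone, a filter at log2 6 or none, median centring, log2 (intensity + 16), trend and robust variances, or 1 probe set per gene. It was 551 with a minimum of 2-fold, 472 to 584 without 1 HRE2ox array, 889 without WT air replicate 2, 1945 with the array term and 996 with the 4 bright thr arrays left out. For the HRE2ox response, leaving out the 4 bright thr arrays is the same fit as that of the 4 arrays alone. The difference from WT had 4 calls. It had 1 in a fit of the 8 HRE2ox and WT arrays, 1 to 2 without 1 array of these groups other than WT air replicate 2, 4 without that array, 17 with the array term, 1 with the 4 bright thr arrays left out, and 3 to 5 otherwise. The difference from HRE1ox had 40 calls. It had 9 in a fit of its own 8 arrays, 26 with the filter at log2 6, 19 without WT air replicate 2, 5 to 9 without 1 array of the groups compared, 162 with the array term, 1 with the 4 bright thr arrays left out, and 27 to 47 otherwise. The median of the low-oxygen list was 3.15 with log2 (intensity + 16), against 3.42. With that offset the reactive oxygen and calcium, root hair and expansin lists had medians of 1.94, -0.78 and -0.37, against 3.44, -1.28 and -0.55. Class III peroxidases stayed at -0.34. The causes of these shifts were not tested, beyond the fewer arrays, fewer probe sets or added minimum that define some settings.

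Replicate numbers did not pair the samples over all 6 groups. The replicate 1 minus replicate 2 differences correlated across probe sets at 0.665 to 0.751 among the 4 WT and HRE1ox groups and at 0.348 between HRE2ox hypoxia and HRE2ox air, but at -0.58 to -0.24 between the HRE2ox groups and the others. With the replicate block 1095 probe sets were called, 932 of them shared with the 953, and the differences from WT and HRE1ox had 3 and 43 calls.

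Among named genes and probe sets, no value changed sign with a call on either side. Over the settings that keep the 4 bright thr arrays as they are, the HRE2ox response kept its side of the threshold 1602 times, lost the call 81 times and gained it 2 times. These numbers were 106, 25 and 2 for the difference from WT, and 140, 123 and 0 for the difference from HRE1ox. With the array term 6, 4 and 0 named genes gained a call in these comparisons and 0 lost one. With the 4 bright thr arrays left out 3, 3 and 14 lost one. Where 1 array of a group was left out, the remaining one was assumed to vary like the other groups. Intensities near background limit low levels. The array term, the fit without the 4 bright thr arrays, list counts under each setting and air differences without 1 array were added after the data were seen.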
